A study of Mus musculus with 6 samples.

Results

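Cytosolic ribosomal protein genes encode the protein part of the ribosomes that translate nuclear-encoded messages, as distinct from the ribosomes inside mitochondria. They were found by symbol: names that begin with Rpl or Rps and a number, the stalk genes Rplp0, Rplp1 and Rplp2, and Rpsa. Of 18283 genes in the deposited table, 86 met this rule, 53 of the large and 33 of the small subunit. A further 13 symbols that match the pattern were left out, of which 10 were Rps6k kinases, 2 were pseudogenes and 1 was Rps19bp1, a protein that binds Rps19. Of the 86 genes, 82 had enough reads to be tested (50 large, 32 small). The other 4, Rpl3l, Rpl39l, Rpl32l and Rps27rt, were too low and are described with the paralogs. Their levels were compared in RNA from cortex of wild-type (WT) mice that had received AAV-GFP-GA or AAV-GFP, with 3 libraries in each group and a time label of 5 months in all 6. AAV, adeno-associated virus, is a vector that delivers a gene. GFP is green fluorescent protein, the control cargo, and GFP-GA is GFP joined to poly-GA, a glycine-alanine repeat protein made from the expanded C9orf72 repeat of amyotrophic lateral sclerosis and frontotemporal dementia. All 6 libraries came from injected cortex, so vector and GFP were common to both groups. The vector's promoter, serotype, dose and route, and the sex and number of mice, were not given by the labels, nor was whether 5 months is an age or a time after injection.

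A ribosome has a small subunit, which reads the message, and a large subunit, which joins the amino acids. Ribosomal proteins are made in matched amounts, and those not built into a subunit are degraded. Most of their messages start with a C followed by a run of C and T bases, the terminal oligopyrimidine tract. Through that tract the kinase mTOR and the RNA-binding protein LARP1 set how much they are translated, mostly without a change in the amount of message. In neurons these messages are also found in dendrites and axons. Work in yeast and human cells found that Rps25, a small subunit protein, is needed for translation of expanded C9orf72 repeats.

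Levels are given as CPM, the usual unit that sets a gene's reads against the scaled size of its library. Where 3 values follow each other for a group, they belong to replicates 1, 2 and 3 in that order. Libraries held 16748754 to 17576017 reads. Summed markers of neurons lay between 8158 and 8750 CPM in the 6 libraries, and no listed marker of neurons, astrocytes, oligodendrocytes or microglia was at 0 in all libraries. Libraries stood apart in other ways. The 9 intestinal epithelium markers had 138, 145 and 205 reads with AAV-GFP-GA, 38 and 34 reads in AAV-GFP replicates 1 and 2, and 146 reads in AAV-GFP replicate 3. AAV-GFP replicate 3 had 1 read from 4 Y-linked genes, and the other 5 libraries had 2018 to 2270. The 5 choroid plexus markers together ranged from 42.0 to 536 CPM in AAV-GFP-GA and from 233 to 1115 CPM in AAV-GFP libraries, and the 5 striatal neuron markers from 462 to 549 CPM and from 335 to 712 CPM. The sums of the 5 endothelial markers, at 119 to 137 CPM and 92.3 to 108 CPM, did not overlap between the groups. Nor did those of the 5 microglial markers, at 276 to 283 CPM and 258 to 270.1 CPM. Taken singly, 3 of the 5 endothelial and 2 of the 5 microglial markers were apart and higher in AAV-GFP-GA, or 60% and 40% (6.09% of all tested genes). In each list 1 marker had a negative log2 fold change. The part of these differences in the results below was not tested. Because AAV-GFP replicates 1 and 2 differed from the other 4 libraries, main results are also given with these sets as a term. In that fit (the library set term) AAV-GFP-GA is set against AAV-GFP replicate 3 alone, the library with 1 Y-linked read. Its estimates rest on 1 AAV-GFP library, and in them group and this Y-linked difference cannot be told apart.

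Sequences around the annotated start of transcription, from the RefSeq table for GRCm38.p6 (the build also called mm10), are shown for the ribosomal protein genes on which the comparison turns. Each line holds 15 bases before the start and 15 from the start onward, 5′ to 3′ on the gene's strand, and capitals mark the longest run of C and T within 10 bases on either side of the start. Of the 5 genes with lower values and the smallest p, Rps12, Rpl23 and Rpl22l1 had an entry, and of the 5 with higher values, Rps9, Rpl18, Rpl10a and Rpl7a had one. Rps6, the ribosomal protein phosphorylated by S6 kinase, and Rps24, which had the highest small subunit level per length, are added.
Rps12, chr10:23787195-23787224, minus strand: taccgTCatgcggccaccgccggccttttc
Rpl23, chr11:97782425-97782454, minus strand: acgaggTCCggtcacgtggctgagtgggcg
Rpl22l1, chr3:28805493-28805522, plus strand: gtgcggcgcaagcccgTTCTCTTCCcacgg
Rps9, chr7:3704026-3704055, plus strand: accgccttgTCTCTCTTTgtctcgggcctg
Rpl18, chr7:45718056-45718085, plus strand: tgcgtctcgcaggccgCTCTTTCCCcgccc
Rpl10a, chr17:28328456-28328485, plus strand: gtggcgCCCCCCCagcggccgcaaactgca
Rpl7a, chr2:26910792-26910821, plus strand: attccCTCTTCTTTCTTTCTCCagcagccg
Rps6, chr4:86857353-86857382, minus strand: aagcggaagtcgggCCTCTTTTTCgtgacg
Rps24, chr14:24490663-24490692, plus strand: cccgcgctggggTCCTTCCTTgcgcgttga

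Long runs were common at these starts. Of 86 genes, 66 had an entry, and 22 of these, 33.3%, had a run of 8 or more C or T bases, against 8.71% of all 27025 genes with an entry. For ribosomal protein genes with several annotated starts, the longest run was counted, as for Rpl19, with runs of 5 and 10. The share therefore depends on how many starts are annotated. Runs of 5 or more were held by 57.6% of the ribosomal protein genes and by 38.3% of all genes with an entry. Within 10 bases of the start, Rpl22l1, with lower values in AAV-GFP-GA, and Rpl18, with higher values, each had a run of 9. Rps12 and Rpl23 had runs of 2 and 3 within that limit, and for Rpl10a a second annotated start had a run of 3. The printed Rps12 line ends in a longer run of C and T, most of which lies beyond the limit. The annotated start may differ from the start used in cortex, and a short run says only that no longer run lies within 10 bases of it. The median log2 fold change (AAV-GFP-GA over AAV-GFP) was -0.013 for the 21 tested genes with a run of 8 or more, -0.022 for 14 genes with a run of 5 to 7 and -0.054 for 27 genes with a shorter run.

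The ribosomal protein genes spanned more than 2 orders of magnitude when reads were set against coding length. The median level was 317 CPM per kb of coding sequence, with 331 for the large and 282 for the small subunit. Rpl41, which encodes the smallest protein of the ribosome, was highest at 2237 CPM per kb. Its coding sequence is 75 bases, and reads from untranslated bases count in that value too. Rps24 followed at 906 CPM per kb, then Rpl21 at 783, the stalk gene Rplp1 at 677 and Rpl26 at 655 CPM per kb. At the low end of the tested genes were Rps27l at 18.4, Rps6 at 20.1, Rpl22l1 at 49.2, Rpl7l1 at 60.2 and Rps28 at 85.3 CPM per kb. Of these, Rps27l, Rpl22l1 and Rpl7l1 are paralogs, and the level of Rps6 depends on how reads were assigned, as set out further on. By reads alone, without length, Rpl4, Rpl3 and Rpsa had the most, at 594, 502 and 493 CPM on average. Over the 6 libraries the median coefficient of variation was 6.67%, against 6.35% for 7647 other tested genes. Those lay within the 5th to 95th percentile of ribosomal protein gene CPM, a wide range without matching gene by gene.

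**Figure D1:**
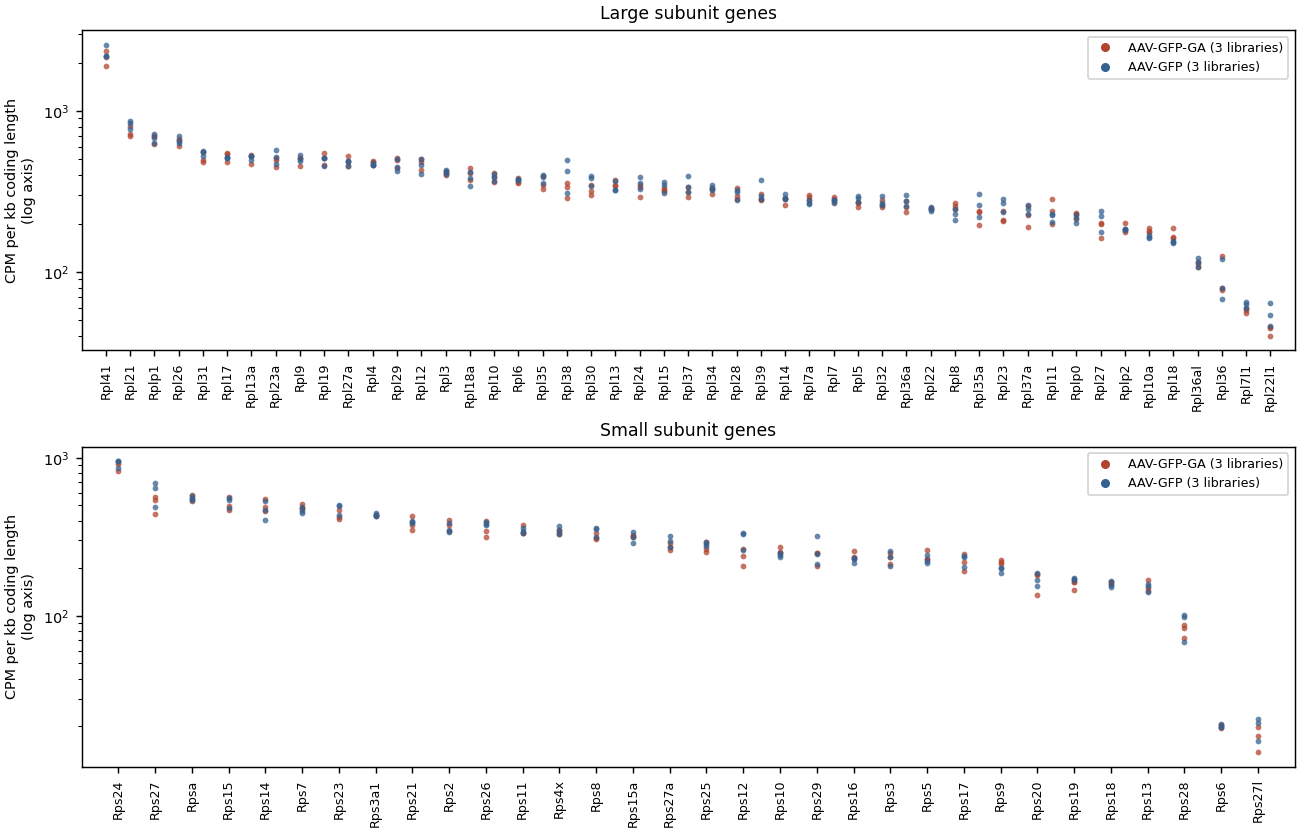
Level of each tested ribosomal protein gene with a coding length, in CPM per kb of coding sequence on a log axis, with 1 point per library coloured by group and the genes ordered by their mean within each subunit. Points of the same gene lie close together against the distance from Rps27l, at 18.4, to Rpl41, at 2237 CPM per kb.

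The part of the library taken by ribosomal protein messages differed between the groups by less than the spread of AAV-GFP-GA replicates. Their reads were 1.45, 1.35 and 1.34% of the library with AAV-GFP-GA and 1.39, 1.43 and 1.40% with AAV-GFP. AAV-GFP-GA replicate 1 was the highest of the 6 libraries and AAV-GFP-GA replicates 2 and 3 were the lowest, so the groups overlapped. The group means were 1.38 ± 0.0613% and 1.41 ± 0.0225% (SD, n = 3 each). Their difference, -0.0251 percentage points, was smaller than the AAV-GFP-GA SD and larger than the AAV-GFP SD. The large subunit genes took 0.886 ± 0.0364% and 0.902 ± 0.0158% of reads, and the small subunit genes 0.497 ± 0.0249% and 0.506 ± 0.0106%, in AAV-GFP-GA and AAV-GFP libraries. In bulk cortex, fewer cells of a type and less RNA per cell cannot be told apart.

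The balance of the subunits differed between the groups by less than the SD of either group. The mean log2 CPM over large subunit genes exceeded that over small subunit genes by 0.22, 0.24 and 0.26 with AAV-GFP-GA, and by 0.21, 0.23 and 0.28 with AAV-GFP. The difference was 0.239 ± 0.0250 in AAV-GFP-GA and 0.240 ± 0.0347 in AAV-GFP libraries (SD, n = 3 each), and the groups overlapped. These values cover the 82 tested genes, paralogs included, and the size of the excess depends on which low genes are counted. It was 0.32 to 0.41 over the 6 libraries without paralogs, 0.39 to 0.51 as a difference of medians, 0.010 to 0.11 over genes with a read in every library, and 0.097 and 0.10 on average in AAV-GFP-GA and AAV-GFP libraries when the reads of LOC105244208, described further on, were added to Rps6. In the first 3 of these the groups overlapped. These levels are descriptions without a test.

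No ribosomal protein gene passed the threshold between the groups. Of the 82 tested, 0 had an adjusted p under 0.05 in edgeR's quasi-likelihood test, adjusted over all tested genes, against 3 of all 14324 tested genes (0.0209%). DESeq2 also called 0 of the 82 (0.0698% of all tested genes), as did limma-voom (0.0209%). At an unadjusted p under 0.05 there were 4 ribosomal protein genes with higher values in AAV-GFP-GA, or 4.88% (3.19% of all tested genes), and 6 with lower values, or 7.32% (3.45% of all tested genes). The 3 values of each group did not overlap for Rpl18, Rpl10a and Rps9, which were higher in AAV-GFP-GA (6.09% of all tested genes), nor for Rpl22l1, Rps19 and Rpl5, which were lower (5.79% of all tested genes). The share with groups apart was 3.66% in each direction, below that of all genes.

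Fold changes were small. The median log2 fold change of the 82 genes was -0.040, against -0.0039 for all tested genes, and 51 of 82, 62.2%, were negative, against 51.4% of all tested genes. The medians were -0.041 for the 50 large and -0.024 for the 32 small subunit genes, with 31 and 20 negative. The median over the 82 genes depended on single libraries. Leaving out AAV-GFP-GA replicate 1 gave -0.070, with 71.1% of genes negative, and leaving out AAV-GFP-GA replicate 2 gave -0.011, with 53.7%. It was -0.013, with 53.0% negative, when AAV-GFP-GA replicate 3 was left out, and -0.011, with 59.0%, when AAV-GFP replicate 2 was. Values ran from -0.37 for Rps12 to 0.16 for Rpl18. For 77 of the 82 genes, 93.9%, the whole 95% confidence interval stayed within 1.5-fold of no change, against 81.5% of all tested genes. The others were Rpl38, Rps12, Rpl22l1, Rps27l and Rpl37rt. The share over all tested genes was not matched for level. The median coefficient of variation was 6.67% for ribosomal protein genes and 6.35% for other tested genes within the wide CPM range given above. That range too was not matched gene by gene. With the library set term the median was -0.0038, with 40 positive and 42 negative genes, and 0 were called (0.0628% of all tested genes). At an unadjusted p under 0.05 that fit held 2 higher genes, Rps14 and Rps15a, named after their values were seen (3.8% of all tested genes), and 0 lower (2.81%).

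**Figure D2:**
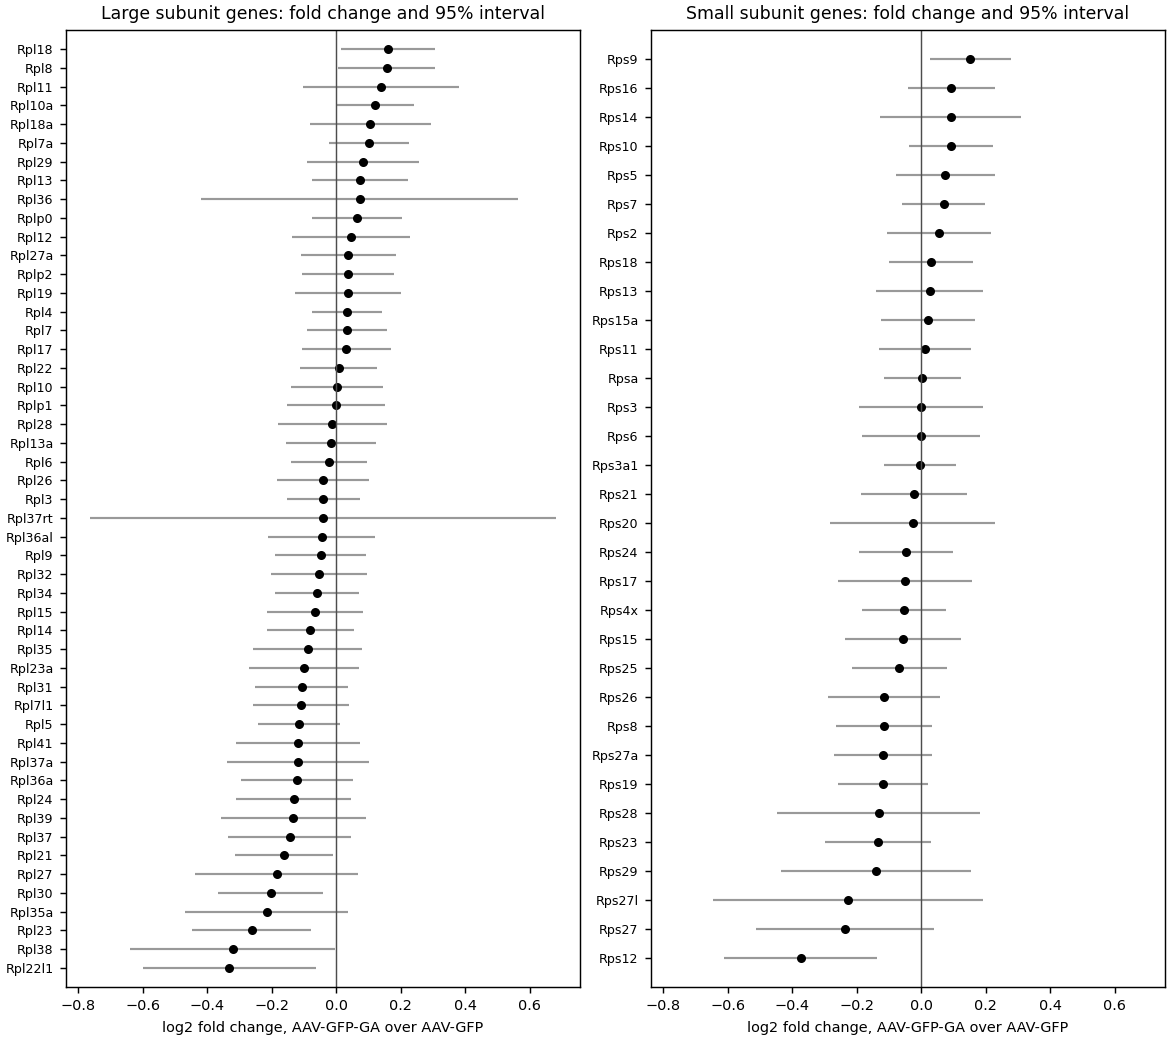
Log2 fold change (AAV-GFP-GA over AAV-GFP) of the 82 tested ribosomal protein genes with 95% confidence intervals from edgeR, ordered by value within each subunit. Estimates run from -0.37 (Rps12) to 0.16 (Rpl18), and no gene passes an adjusted p of 0.05.

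The count depended on AAV-GFP replicate 3. Without that library edgeR called Rps12 lower, at a log2 fold change of -0.48 (adjusted p 0.0495), and no other ribosomal protein gene, where 72 of all tested genes (0.499%) were called. The unadjusted p was then under 0.05 for 8 higher and 19 lower ribosomal protein genes, or 9.76% and 23.2%, against 9.5% and 10.3% of all tested genes. Leaving out any of the other 5 libraries left 0 called.

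The lowest ratio was that of Rps12, a small subunit protein that in Drosophila takes part in cell competition. Rps12 was at 105, 94.2 and 82.2 CPM with AAV-GFP-GA and at 129.5, 133 and 103 CPM with AAV-GFP. AAV-GFP replicate 3 lay just under AAV-GFP-GA replicate 1, and the other pairs of values were apart. The log2 fold change was -0.37 ± 0.108 (SE), with an unadjusted p of 0.00543 and, by edgeR, an adjusted p of 0.742. With the library set term it was -0.14 ± 0.11 (SE).

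Rpl23, a large subunit protein that in human cells can bind the p53 regulator MDM2, was at 100.4, 88.1 and 87.4 CPM with AAV-GFP-GA and at 119.6, 113 and 98.4 CPM with AAV-GFP. The highest AAV-GFP-GA library stood above AAV-GFP replicate 3 only. Its log2 fold change was -0.26 ± 0.083 (SE), adjusted p 0.742 by edgeR, and -0.10 ± 0.0864 (SE) with the library set term. Rpl30, which in yeast binds its own transcript, was at 120.3, 110.4 and 104 CPM with AAV-GFP-GA and at 131, 136 and 118 CPM with AAV-GFP. Here too AAV-GFP-GA replicate 1 exceeded AAV-GFP replicate 3 and no other AAV-GFP library. The log2 fold changes were -0.20 ± 0.0739 (SE) and, with the library set term, -0.079 ± 0.0813 (SE). Rpl21, a large subunit protein among the highest per length, was at 385, 335 and 344 CPM with AAV-GFP-GA and at 417, 403 and 371 CPM with AAV-GFP. It had a log2 fold change of -0.16 ± 0.0691 (SE), adjusted p 0.742 by edgeR, and -0.066 ± 0.0823 (SE) with the library set term. For Rps12, Rpl23, Rpl30 and Rpl21 alike, AAV-GFP replicate 3 was the lowest of its group.

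Rpl38, whose loss in mice impairs translation of a subset of Hox messages, was at 70.5, 60.8 and 74.8 CPM with AAV-GFP-GA and at 64.8, 104 and 88.7 CPM with AAV-GFP. AAV-GFP replicate 1 lay within the AAV-GFP-GA range and the other AAV-GFP libraries above it, and the coefficient of variation, 21.1%, was among the 3 highest of the tested genes. Its log2 fold change was -0.32 ± 0.143 (SE), with an unadjusted p of 0.0476 and, by edgeR, an adjusted p of 0.746, and -0.37 ± 0.199 (SE) with the library set term. It was -0.49 without AAV-GFP replicate 1 and -0.16 without AAV-GFP replicate 2, with adjusted p-values by edgeR of 0.245 and 0.9999, and its unadjusted p was 0.128 by DESeq2. The others among those 3 were Rpl37rt, at 31.9%, and Rpl36, at 27.1%. Rpl36 was at 39.7, 24.2 and 24.9 CPM with AAV-GFP-GA and at 25.1, 21.3 and 37.9 CPM with AAV-GFP. AAV-GFP-GA replicate 1 and AAV-GFP replicate 3 were both high and the other 4 libraries low, and the log2 fold change was 0.072 ± 0.222 (SE).

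Among genes with higher values, Rps9, a small subunit protein near the entry of the message channel, was at 131, 128 and 123 CPM with AAV-GFP-GA and at 109, 118 and 117 CPM with AAV-GFP. The groups were apart, with every AAV-GFP-GA library above the AAV-GFP libraries. The log2 fold change was 0.15 ± 0.0571 (SE), unadjusted p 0.023 and adjusted p 0.742 by edgeR, and 0.12 ± 0.0694 (SE) with the library set term. Rpl18, a large subunit protein, was at 105, 92.8 and 91.2 CPM with AAV-GFP-GA and at 87.3, 85.6 and 86.1 CPM with AAV-GFP. The groups did not overlap, with AAV-GFP-GA replicate 1 above the rest, and the log2 fold change was 0.16 ± 0.0661 (SE), or 0.16 ± 0.086 (SE) with the library set term and 0.094 when AAV-GFP-GA replicate 1 was left out. Rpl10a, which belongs to the mobile stalk beside the exit site of the large subunit, was at 121, 116 and 114 CPM with AAV-GFP-GA and at 107, 106 and 110.3 CPM with AAV-GFP. Its groups were also apart, with a log2 fold change of 0.12 ± 0.0544 (SE). The adjusted p by edgeR was 0.742 for Rpl18 and 0.746 for Rpl10a.

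Rpl8, a large subunit protein close to the centre where peptide bonds form, was at 206, 197 and 189 CPM with AAV-GFP-GA and at 178, 163 and 191 CPM with AAV-GFP. AAV-GFP replicate 3 lay within the AAV-GFP-GA range, and the log2 fold change of 0.16 ± 0.0679 (SE) became 0.049 ± 0.0748 (SE) with the library set term and 0.10 when AAV-GFP replicate 2 was left out. Rpl7a, a large subunit protein, had 231 ± 8.7 CPM in AAV-GFP-GA and 215 ± 5.96 CPM in AAV-GFP libraries (SD, n = 3 each) and a log2 fold change of 0.10 ± 0.0557 (SE), with an unadjusted p of 0.0973 and, by edgeR, an adjusted p of 0.751. Its groups met at a single point, where AAV-GFP-GA replicate 2 and AAV-GFP replicate 3 were nearly equal.

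**Figure D3:**
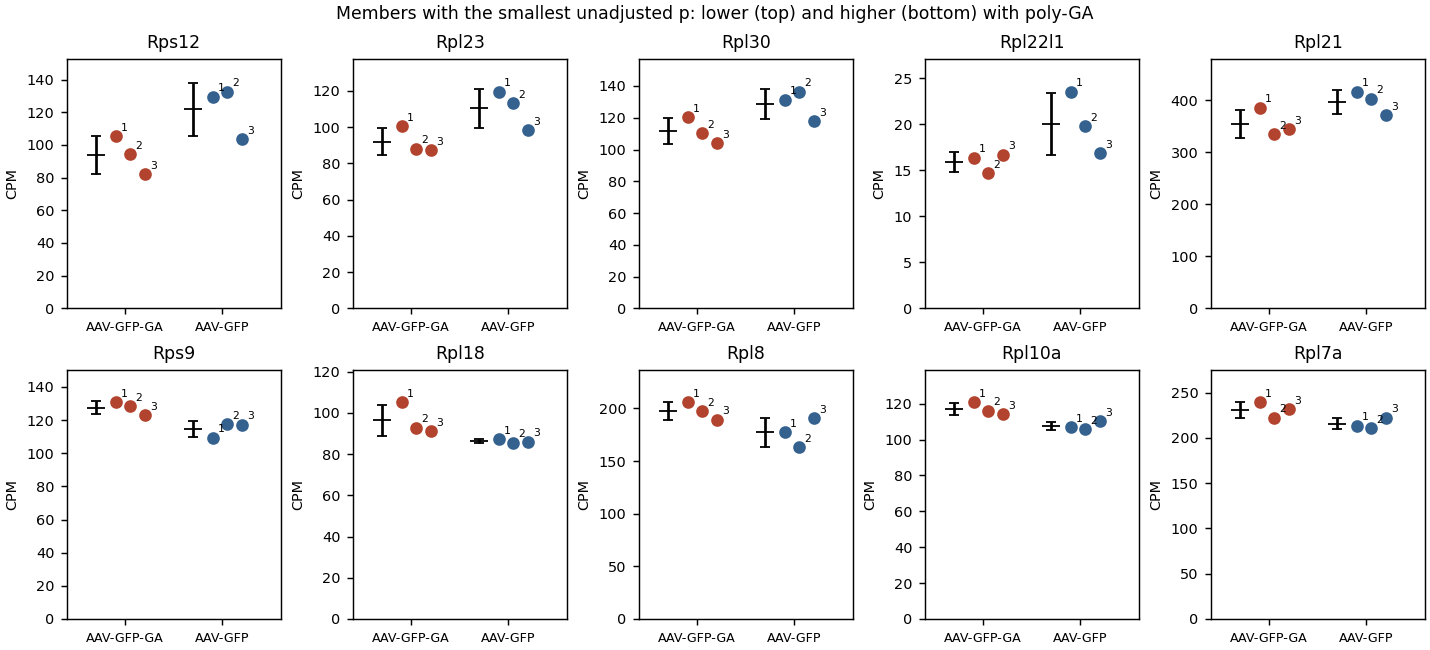
CPM per library, on linear axes from 0, for the 5 genes with lower (top) and the 5 with higher values (bottom) and the smallest unadjusted p, with a numbered point per replicate and bars for the group mean ± SD (n = 3). Rps12 reaches 133 CPM in AAV-GFP replicate 2 and is at 82.2 CPM in AAV-GFP-GA replicate 3, and the points of Rps9 separate by group.

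The stalk of the large subunit, made of Rplp0, Rplp1 and Rplp2, recruits the elongation factors. Rplp0 had 214 ± 10.8 CPM in AAV-GFP-GA and 204 ± 11.2 CPM in AAV-GFP libraries (SD, n = 3 each), Rplp1 had 232 ± 14.7 CPM in AAV-GFP-GA and 232 ± 15.2 CPM in AAV-GFP libraries (SD, n = 3 each), and Rplp2 had 64.9 ± 4.33 CPM in AAV-GFP-GA and 63.3 ± 0.659 CPM in AAV-GFP libraries (SD, n = 3 each). Their log2 fold changes had 95% confidence intervals of -0.075 to 0.20, -0.15 to 0.15 and -0.11 to 0.18, and all 3 pairs of groups overlapped. Rpsa, which is also known as the laminin receptor, had 493 ± 20.9 CPM in AAV-GFP-GA and 492 ± 13.8 CPM in AAV-GFP libraries (SD, n = 3 each), with an interval of -0.12 to 0.12.

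Rpl5 and Rpl11 bind the smallest ribosomal RNA of the large subunit and, when free of it, restrain MDM2. Rpl5 was at 242, 237 and 227 CPM with AAV-GFP-GA and at 257, 265 and 243 CPM with AAV-GFP. The groups did not overlap, though AAV-GFP-GA replicate 1 and AAV-GFP replicate 3 were close to each other, and the log2 fold change was -0.12 ± 0.0577 (SE), adjusted p 0.746 by edgeR. Rpl11 was at 152, 129 and 106 CPM with AAV-GFP-GA and at 109, 120.3 and 122 CPM with AAV-GFP, with a log2 fold change of 0.14 ± 0.109 (SE) and a wide spread inside AAV-GFP-GA. Rps19, the gene most often mutated in human Diamond-Blackfan anaemia, was at 70.9, 63.5 and 71.2 CPM with AAV-GFP-GA and at 75.2, 73.6 and 74.4 CPM with AAV-GFP. Its AAV-GFP values were close together and all above AAV-GFP-GA, with a log2 fold change of -0.12 ± 0.0634 (SE), adjusted p 0.751 by edgeR. Rpl5 and Rpl11, partners in the same particle, had estimates of opposite sign, and neither passed the test.

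Rps25, the protein linked to repeat translation, was at 109.9, 99.5 and 94.6 CPM with AAV-GFP-GA and at 106, 109.6 and 103 CPM with AAV-GFP. The groups overlapped, and the log2 fold change of -0.069 ± 0.0665 (SE) had a 95% confidence interval of -0.22 to 0.078 and, by edgeR, an adjusted p of 0.838. Rpl24, which bridges the subunits, had 154 ± 13.7 CPM in AAV-GFP-GA and 168 ± 13.8 CPM in AAV-GFP libraries (SD, n = 3 each) and a log2 fold change of -0.13 ± 0.0804 (SE). Rpl26, which in human cells binds the p53 message, had 281 ± 16.6 CPM in AAV-GFP-GA and 289 ± 15.4 CPM in AAV-GFP libraries (SD, n = 3 each) and a log2 fold change of -0.04 ± 0.0644 (SE). Rpl10, added late in assembly of the large subunit, had 249 ± 15.4 CPM in AAV-GFP-GA and 249 ± 12.6 CPM in AAV-GFP libraries (SD, n = 3 each), and the X-linked Rps4x had 266 ± 7.8 CPM in AAV-GFP-GA and 276 ± 14.7 CPM in AAV-GFP libraries (SD, n = 3 each). For both the groups overlapped.

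Rps6 stood apart by its level. Rps6 had 15.02 ± 0.462 CPM in AAV-GFP-GA and 15.03 ± 0.338 CPM in AAV-GFP libraries (SD, n = 3 each), from 248 to 267 reads a library, where the median ribosomal protein gene had 139 CPM. Another row of the table, LOC105244208, is a transcribed pseudogene on chromosome 2 (75190995 to 75191854) that shares sequence with it, while Rps6 lies on chromosome 4. Of the 50-base words in Rps6 transcripts, 84.6% also occurred in other genes of the table, with LOC105244208 the main partner. LOC105244208 was at 349, 325 and 328 CPM with AAV-GFP-GA and at 305, 316 and 327 CPM with AAV-GFP. Rps6 held between 4.20% and 4.65% of the reads of the pair, so most reads of the pair were listed under the pseudogene. Together the pair had 348.9 ± 13.2 CPM in AAV-GFP-GA and 331 ± 11.4 CPM in AAV-GFP libraries (SD, n = 3 each), with overlapping groups, and LOC105244208 alone had a log2 fold change of 0.079 ± 0.0562 (SE), adjusted p 0.776 by edgeR. The level of Rps6 itself is therefore uncertain in both groups.

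Other ribosomal protein genes shared sequence as well. Of 84 genes with a transcript in the annotation, 11 shared over 10% of their 50-base words with other genes of the table, among them Rpl10, Rpl11, Rpl29, Rplp2 and Rps27. Against any annotated gene, in the table or not, 23 of the 84 shared over 50% of their words, and the median was 34.8%. Counted that way, Rps12 shared 64.6% and Rps9 12.4%, though neither shared a word with other genes of the table. In 16 of the 86 genes the deposited value was not exactly whole in at least 1 library. These included genes that share no 50-base word with other genes of the table, such as Rpl5, while Rpl10 and Rpl11, which share some, were whole in all 6 libraries.

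Paralogs of ribosomal proteins can replace their partner in the ribosome in some tissues. Rpl22l1, whose transcript Rpl22 binds and lowers in mice, was the paralog with the largest difference. It was at 16.4, 14.7 and 16.7 CPM with AAV-GFP-GA and at 23.6, 19.8 and 16.9 CPM with AAV-GFP. The AAV-GFP-GA libraries were all below the AAV-GFP libraries, by a narrow margin for AAV-GFP replicate 3. Its log2 fold change was -0.33 ± 0.121 (SE), unadjusted p 0.0197 and adjusted p 0.742 by edgeR, and -0.081 ± 0.132 (SE) with the library set term. It was -0.20 when AAV-GFP replicate 1 was left out. Rpl22 itself was at 94.0, 94.7 and 95.9 CPM with AAV-GFP-GA and at 91.9, 96.7 and 94.7 CPM with AAV-GFP, with a log2 fold change of 0.0067 ± 0.0536 (SE). Rpl22l1 accounted for 14.8, 13.4 and 14.9% of the pair's reads with AAV-GFP-GA and 20.4, 17.0 and 15.1% with AAV-GFP.

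Rpl7l1, a nucleolar relative of Rpl7, made up 14.8, 15.7 and 16.7% of the pair's reads with AAV-GFP-GA and 17.6, 17.4 and 16.3% with AAV-GFP. The groups overlapped, and the log2 fold changes were -0.11 ± 0.0674 (SE) for Rpl7l1 and 0.033 ± 0.0557 (SE) for Rpl7. Rpl36al provided 28.9% to 31.4% of the summed reads of its pair with Rpl36a over the 6 libraries. The log2 fold changes were -0.046 ± 0.0747 (SE) for Rpl36al and -0.12 ± 0.0781 (SE) for Rpl36a. Rps27l, a p53 target in human cells, provided 2.46% to 3.81% of its pair with Rps27. The log2 fold changes were -0.23 ± 0.189 (SE) for Rps27l and -0.24 ± 0.125 (SE) for Rps27, and with the library set term 0.062 ± 0.25 (SE) and 0.075 ± 0.118 (SE).

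The remaining paralogs were near the limit of detection. Rpl3l, the form of Rpl3 in heart and skeletal muscle, had 23 reads over all 6 libraries against an Rpl3 level of 502 CPM. Rpl39l, the testis form of Rpl39, had 2 reads, and Rpl32l had 1. Rps27rt had 48 reads, with 0 in AAV-GFP-GA replicate 1 and AAV-GFP replicate 2, and shared 91.1% of its words with Rps27. Rpl37rt had 219 reads and passed the filter, with a log2 fold change of -0.042 ± 0.327 (SE). Rps27a, made as a fusion with ubiquitin, had 128 ± 5.91 CPM in AAV-GFP-GA and 139 ± 10.9 CPM in AAV-GFP libraries (SD, n = 3 each) and a log2 fold change of -0.12 ± 0.0686 (SE). Fau, which encodes a small subunit protein fused to a ubiquitin-like protein and whose symbol lies outside the rule, had a log2 fold change of 0.0073 ± 0.0696 (SE).

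The mean level of the ribosomal protein genes differed more among AAV-GFP-GA libraries than between the groups. Each gene's log2 CPM was set against its own mean over the 6 libraries, and the mean over 82 genes was 0.062, -0.050 and -0.075 with AAV-GFP-GA and 0.017, 0.067 and -0.020 with AAV-GFP. The gap between highest and lowest AAV-GFP-GA library was 0.137, against a difference between group means of -0.042. AAV-GFP-GA replicate 1 was the highest library for 33 genes and AAV-GFP replicate 2 for 30. AAV-GFP-GA replicate 3 was the lowest for 26 and AAV-GFP-GA replicate 2 for 23. The order of libraries was similar in the large and the small subunit: the mean deviations of AAV-GFP-GA replicate 1 were 0.052 and 0.077, and those of AAV-GFP-GA replicate 3 were -0.065 and -0.091.

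**Figure D4:**
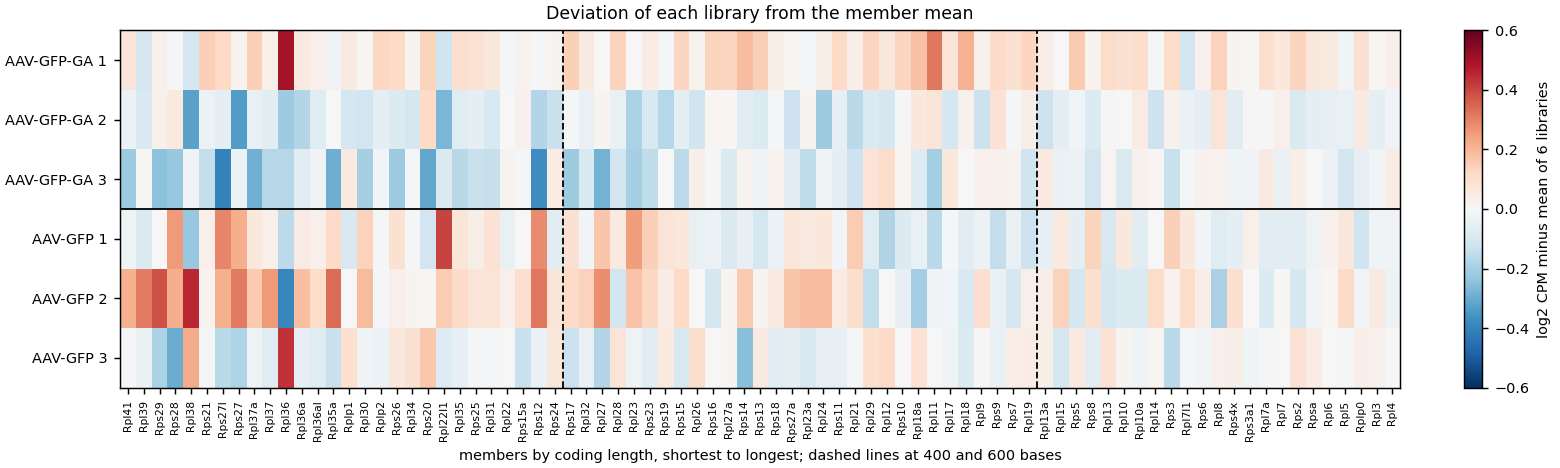
Deviation of each tested ribosomal protein gene from its own mean log2 CPM over the 6 libraries, with libraries as rows and genes as columns from the shortest to the longest coding sequence (dashed lines at 400 and 600 bases; red is above and blue below the mean). AAV-GFP-GA replicate 1 and AAV-GFP replicate 2 are the rows with the most high values, with mean deviations of 0.062 and 0.067.

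The sign of the fold change differed between size classes of the genes, which is given as a description. These classes were not among the planned results. Of 28 ribosomal protein genes with a coding sequence under 400 bases, 24 had a negative and 4 a positive log2 fold change, with a median of -0.12. The 30 genes from 400 to under 600 bases had a median of 0.019 and the 23 genes of 600 bases or more a median of -0.0013. All tested genes under 400 bases also had a negative median, -0.066, with 454 negative and 201 positive. With the library set term the median of the 28 short ribosomal protein genes was -0.023, with 16 negative and 12 positive, and without AAV-GFP replicate 3 it was -0.14, with 23 negative and 5 positive. Their mean deviations were 0.054, -0.089 and -0.14 with AAV-GFP-GA and 0.049, 0.14 and -0.018 with AAV-GFP.

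Base composition of the coding sequence was also set in classes, chosen after the data were seen. The median of the ribosomal protein genes rose with GC content, where by length only the genes under 400 bases stood apart. The 27 ribosomal protein genes with the lowest GC content, up to 50.5%, had a median of -0.069 on the log2 fold change scale, 21 of them negative. The middle 27 had a median of -0.051, and the 27 genes above 54.4% a median of 0.036, with 10 negative and 17 positive. All tested genes in the same classes had medians of -0.048, -0.0018 and 0.039, and with the set term the order turned, to 0.022, 0.0014 and -0.021. With the library set term the medians of the ribosomal protein genes were -0.0082, -0.0097 and 0.0059. Across the 81 genes, Spearman's rho between log2 fold change and coding length was 0.52 (Pearson's r 0.42) and that with GC content 0.46 (r 0.50), and with the set term 0.067 (r 0.068) and 0.15 (r 0.12). Over all tested genes rho was 0.14 and 0.30, and with the set term 0.12 and -0.11. These are correlations across genes of the same 6 libraries, with no p, and genes are not independent replicates. What part length, base composition and library set have in the sign of the fold changes was not tested, and group and set cannot be told apart for AAV-GFP replicates 1 and 2.

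**Figure D5:**
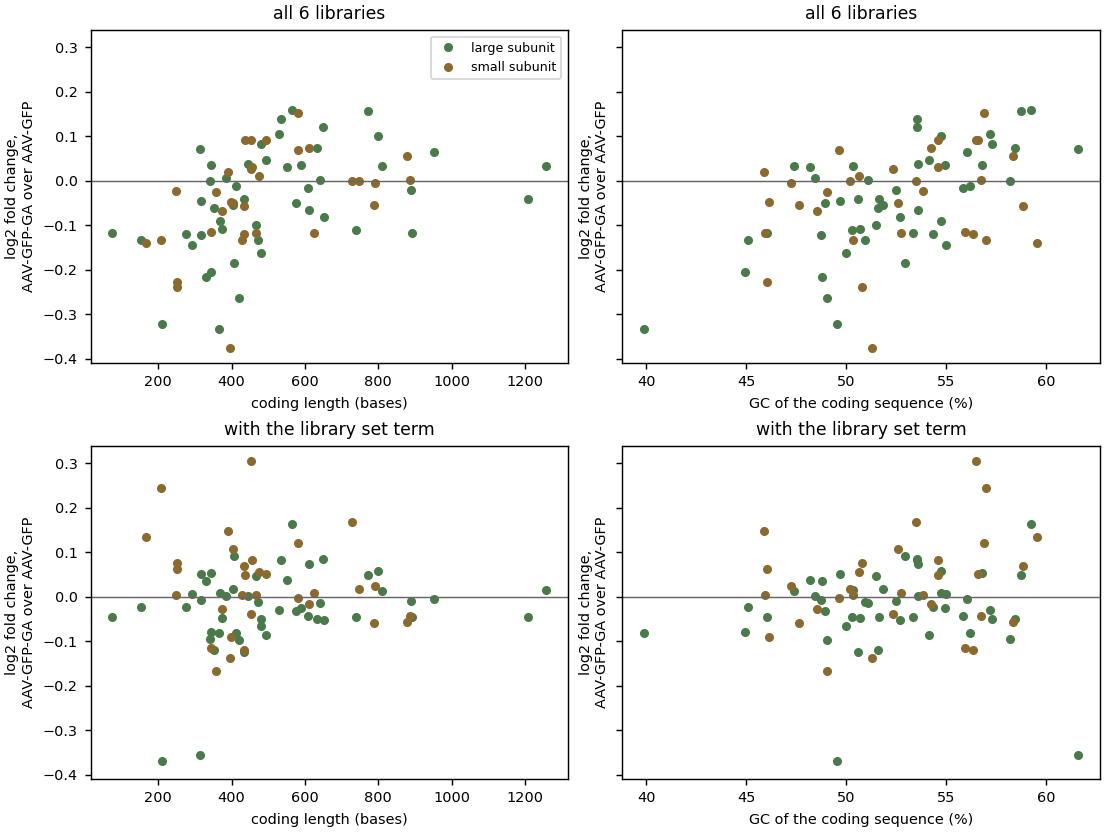
Log2 fold change (AAV-GFP-GA over AAV-GFP) of ribosomal protein genes against coding length in bases and against GC content of the coding sequence in percent, from the fit without and with the library set term. Short genes lie mostly below 0 without the term (24 of 28 negative) and on both sides of 0 with it (16 of 28 negative).

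Other genes of translation were set beside the ribosomal proteins, and none was called. The 17 elongation factors and other oligopyrimidine messages had a median log2 fold change of -0.023. At an unadjusted p under 0.05, 1 gene was higher, or 5.88% (3.19% of all tested genes), and 0 were lower (3.45%). The higher gene was the initiation factor subunit Eif3f, at 0.14 ± 0.065 (SE). Rack1, a scaffold protein of the small subunit, had 167 ± 6.95 CPM in AAV-GFP-GA and 148 ± 17.3 CPM in AAV-GFP libraries (SD, n = 3 each) and a log2 fold change of 0.17 ± 0.0802 (SE), which with the library set term was -0.012 ± 0.0685 (SE). Eef1a1, the main elongation factor, had a log2 fold change of -0.045 ± 0.0494 (SE). The 26 genes of ribosome assembly had a median of -0.029, and 0 were under that p in either direction (3.19% higher and 3.45% lower of all tested genes). Ribosomal proteins of mitochondria, 78 genes, had a median of -0.027, with 1 higher at an unadjusted p under 0.05, Mrpl43 (1.28%, against 3.19% of all tested genes), and 4 lower, Mrpl20, Mrps25, Mrps33 and Mrpl47 (5.13%, against 3.45%). With the library set term the median of these 78 genes was -0.042. Groups were apart for 10 lower and 2 higher genes of this list, or 12.8% and 2.56%, against 5.79% and 6.09% of all tested genes.

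Of 8 genes that control oligopyrimidine messages, the median log2 fold change was -0.0060. Larp1, which binds the tract, had 174 ± 6.03 CPM in AAV-GFP-GA and 173 ± 0.955 CPM in AAV-GFP libraries (SD, n = 3 each) and a log2 fold change of 0.0055 ± 0.0534 (SE), and Mtor had 0.06 ± 0.0535 (SE). Rps6kb2, an S6 kinase that phosphorylates Rps6, was at 9.44, 8.34 and 7.56 CPM with AAV-GFP-GA and at 9.99, 10.1 and 13.7 CPM with AAV-GFP. The groups were apart, with a log2 fold change of -0.42 ± 0.147 (SE), an unadjusted p of 0.0174 and, by edgeR, an adjusted p of 0.742. AAV-GFP replicate 3 was the highest library, and the estimate with the library set term was -0.70 ± 0.151 (SE). Message levels do not measure translation, phosphorylation or the number of ribosomes.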

How the data were processed

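RNA from mouse cortex was sequenced in 6 libraries. The deposited table holds expected counts, the authors' estimated number of reads per gene. Per the submitters' processing notes, Bowtie2 2.2.5, RSEM 1.2.12 and mm10 are named, with no role or order. RNA was extracted with Trizol and libraries followed the provider's standard protocol, per the labels' protocols. Neither strand setting nor annotation is stated, and reads of overlapping, antisense and near-identical genes may sit with either partner. The 1 row that named no gene was left out.

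Expected counts were rounded and kept by filterByExpr (14324 genes), scaled by trimmed mean of M values and tested with edgeR 4.0.16 (quasi-likelihood, two-sided, R 4.3.3), and p-values were adjusted by Benjamini-Hochberg over these genes, with a threshold of 0.05. The biological coefficient of variation was 7.92%. DESeq2 1.42.0, limma-voom 3.58.1, other scalings and filters, a replicate block, a library set term and leaving out each library were alternatives. The labels do not say that replicates were separate animals, so p-values measure the spread between these libraries. AAV-GFP replicate 3 had 1 Y-linked read, against 2219 and 2270 in AAV-GFP replicates 1 and 2. It therefore did not come from the same animals as those libraries. Among the remaining libraries the spread may be technical. No molecular identifiers are stated.

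Members and lists were chosen with earlier results of these data known. Named genes were, by rule, the stalk proteins, Rpsa, Rpl5, Rpl11, Rps6, Rps19, Rps25, Rpl38, Rpl24, Rpl26, Rpl10, Rps4x, Rack1, Rps27a, Fau and paralog pairs, the 5 higher and 5 lower genes with the smallest p, the 3 with the highest variation and the 3 highest and lowest by level in each subunit. Coding lengths and GC content came from GENCODE vM21 (GRCm38), and start sites and coordinates, 1-based, from RefSeq GRCm38.p6.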

Additional observations from a re-analysis of the deposited data

How the results depend on the processing

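The count of ribosomal protein genes called was 0 in every alternative that kept all 6 libraries, and it ranged from 0 to 1 when a library was left out, with 1, Rps12, without AAV-GFP replicate 3. The adjusted p of Rps12 ranged from 0.0495 to 0.9999 over all alternatives. The count over all genes, 3, went to 10 with DESeq2 and to 9 with the library set term, and from 2 to 72 when a library was left out. The median log2 fold change and the differences between the groups in subunit balance and in share of reads moved by less than the spread between libraries in each alternative. That spread was larger than these quantities themselves, so staying within it does not show that they were stable. For the median, -0.040, the spread was 0.060. It ran from -0.070 without AAV-GFP-GA replicate 1 to -0.0038 with the library set term. The sets of that term were drawn from differences seen among these same libraries. A further 2 alternatives, on LOC105244208, were chosen after seeing the data.

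Replicate numbers were shared by the groups, but same-numbered libraries did not deviate together (correlations of 0.104, -0.12 and 0.065), and not every library correlated best with its own number. With the replicate number as a block, 2 genes in all and 0 ribosomal protein genes were called, and the median of the ribosomal protein genes was -0.040.

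Of 41 named genes in the fit, 23 kept their sign in every alternative. With the library set term Rpl10 (-0.015), Rpl36 (-0.36), Rplp0 (-0.0054) and Rpsa (-0.042) became negative, and Rpl36al (0.051), Rpl37rt (0.65), Rps27 (0.075), Rps27a (0.0029), Rps27l (0.062), Rps28 (0.25), Rps3a1 (0.025) and Rps6 (0.017) became positive. Rplp1, at -4.7e-05, was 0.0022 with DESeq2 size factors, 0.0014 with scaling without ribosomal protein genes, 0.0020 with no filter, 0.00030 with a stricter filter, 0.0022 with DESeq2 and 7.7e-05 with the replicate block. Rps6 was 0.00091 with DESeq2 size factors, 0.00016 with scaling without ribosomal protein genes, 0.00060 with no filter and 0.00091 with DESeq2. When a library was left out, ranges that crossed 0 were -0.042 to 0.048 for Rpl10, -0.013 to 0.024 for Rpl22, -0.072 to 0.0078 for Rpl26, -0.20 to 0.35 for Rpl36, -0.39 to 0.15 for Rpl37rt, -0.21 to 0.0020 for Rpl39, -0.046 to 0.052 for Rplp1, -0.018 to 0.072 for Rplp2, -0.091 to 0.0061 for Rps24, -0.017 to 0.0092 for Rps3a1, -0.012 to 0.024 for Rps6 and -0.027 to 0.032 for Rpsa. The cause of the changes of sign was not tested. Depth limits what can be said of Rpl39l and Rpl32l, which had 2 reads and 1 read in all.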
